A study of Mus musculus with 24 samples.

Results

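The regions described here are H3K27me3 peaks that lie on H3K27ac in both genotypes of a Dnmt3a knockout study in lung endothelium. A peak of the WT H3K27me3 list was taken if it overlapped, by at least 1 bp, a KO H3K27me3 peak, a KO H3K27ac peak and a WT H3K27ac peak. The KO and WT H3K27ac peaks did not have to overlap each other. The rule left 6411 of 20918 WT H3K27me3 peaks, or 30.6%, called doubly marked peaks below. The cells were endothelial cells sorted by flow cytometry from lungs of Dnmt3a KO mice and of WT mice. Dnmt3a encodes a de novo DNA methyltransferase, and the labels state neither the deleted allele, nor a Cre driver, nor the age of the mice. ACT-seq was run, in which an antibody carries a loaded Tn5 transposase to a histone mark and the nearby DNA is cut and tagged. The labels name 3 KO and 3 WT samples for each of 4 marks, 24 samples in all, and 1 deposited list of peaks per genotype and mark was analysed. Each group therefore enters as 1 list of positions, with no height, depth or spread between replicates, and no test between genotypes was possible. Intervals below are exact binomial ones (Clopper-Pearson, 95%). They count each peak as independent of the others and hold counting error alone.

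H3K27me3 is written by Polycomb repressive complex 2 and is known from silent developmental genes, where it often spreads over broad domains. H3K27ac is written by p300 and CBP on the same lysine and marks active promoters and enhancers, so that a single histone tail cannot carry both. H3K4me3 marks promoters and H3K4me1 marks enhancers and promoter flanks. Tn5 also cuts open chromatin without guidance by an antibody, which is a known source of background in transposase-based mapping, most of all for marks of closed chromatin. No open-chromatin assay and no control antibody entered here, so antibody-guided H3K27me3 signal and Tn5 cutting of open DNA cannot be told apart by these lists alone. The measurements that bear on the question are given as measurements.

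The labelled cell type was checked against marker genes. H3K4me3 was listed in both genotypes at 21 of 25 pan-endothelial genes, 0 of 16 leukocyte genes, 0 of 16 mesenchymal and mural genes and 3 of 15 lung epithelial genes. The other endothelial lists gave 13 of 13 general capillary, 10 of 12 aerocyte and 14 of 16 arterial genes. Venous and lymphatic genes gave only 3 of 15, as low as lung epithelium. Over all protein-coding genes the count was 9772 of 20665. The KO lists held 22724 H3K4me3, 44484 H3K27ac, 48458 H3K4me1 and 31022 H3K27me3 peaks, and the WT lists 14984, 81112, 49363 and 20918 in the same order. The lists thus differ in length between genotypes, more H3K4me3 and H3K27me3 peaks being listed in KO and more H3K27ac peaks in WT, which touches every comparison of presence between genotypes below. Whether differences in depth set these lengths was not tested.

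Promoter sequences of 4 genes with such peaks are printed as examples. The first 3 were picked as extremes, so the 4 do not stand for the set. At Unc5c and Chrm4 only 5.74% and 17.1% of the WT peak lay in WT H3K27ac. The sequences are from RefSeq on GRCm38.p6, run 5′ to 3′ along the gene from 250 bases before to 50 after the listed start of transcription, and have CpG dinucleotides in capitals. Among the named genes whose promoters could be printed, which leave out symbols that start with Gm or LOC or end in Rik, Unc5c has the widest doubly marked peak at a gene, Sh3glb1 the widest WT H3K27ac peak over one, and Chrm4 the widest one without H3K4me3. B2m is a housekeeping gene. The windows are chr3:141465314-141465613 (plus strand) for Unc5c, chr3:144720286-144720585 (minus strand) for Sh3glb1, chr2:91921939-91922238 (plus strand) for Chrm4 and chr2:122147437-122147736 (plus strand) for B2m.
Unc5c: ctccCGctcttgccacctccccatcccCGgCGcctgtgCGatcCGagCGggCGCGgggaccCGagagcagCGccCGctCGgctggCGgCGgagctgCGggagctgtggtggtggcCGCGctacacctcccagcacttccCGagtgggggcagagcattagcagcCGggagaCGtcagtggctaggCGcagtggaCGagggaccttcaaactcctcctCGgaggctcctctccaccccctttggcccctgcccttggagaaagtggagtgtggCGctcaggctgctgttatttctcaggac
Sh3glb1: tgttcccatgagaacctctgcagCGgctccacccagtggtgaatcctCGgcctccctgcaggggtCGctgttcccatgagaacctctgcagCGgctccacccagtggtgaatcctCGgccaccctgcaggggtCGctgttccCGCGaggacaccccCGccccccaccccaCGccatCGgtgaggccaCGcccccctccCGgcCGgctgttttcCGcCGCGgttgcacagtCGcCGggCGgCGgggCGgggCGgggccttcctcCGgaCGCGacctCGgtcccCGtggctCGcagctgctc
Chrm4: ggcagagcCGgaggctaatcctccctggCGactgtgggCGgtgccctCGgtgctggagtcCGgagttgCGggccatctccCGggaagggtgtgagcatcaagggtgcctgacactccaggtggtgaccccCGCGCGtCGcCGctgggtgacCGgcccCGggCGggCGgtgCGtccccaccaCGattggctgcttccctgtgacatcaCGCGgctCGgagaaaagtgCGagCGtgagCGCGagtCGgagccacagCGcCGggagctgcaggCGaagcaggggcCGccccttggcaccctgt
B2m: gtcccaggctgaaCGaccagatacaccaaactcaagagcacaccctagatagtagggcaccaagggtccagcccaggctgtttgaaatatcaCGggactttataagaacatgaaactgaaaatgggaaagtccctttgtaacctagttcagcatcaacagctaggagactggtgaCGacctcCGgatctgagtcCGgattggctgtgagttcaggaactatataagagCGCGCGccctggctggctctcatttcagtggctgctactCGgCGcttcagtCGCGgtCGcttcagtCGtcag
These windows hold 24, 29, 30 and 14 CpGs in the same order, and the doubly marked peak covers 300, 300, 245 and 297 of their 300 bases. The first 3 are dense in CpG, while the B2m window has fewer.

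The doubly marked peaks were short, and most sat inside a wider H3K27ac peak. The peaks were chosen by their presence in the H3K27me3 and H3K27ac lists of both genotypes, so the values of these marks are a description, with no test. Their median width in WT was 397 bp, with quartiles of 276 and 557.5 bp and a maximum of 3660 bp, and 278 of 6411 (4.34%) reached 1000 bp. The shared H3K27me3 peaks without H3K27ac in either genotype, 8324 in all, had a median of 441.5 bp and quartiles of 248 and 790 bp, and 1382 of them (16.6%) reached 1000 bp. The medians were thus close, and the sets differed mainly in the share of wide peaks. In the remaining shared peaks, 980 in all, H3K27ac was present in 1 genotype. H3K27ac peaks over doubly marked peaks had median widths of 707 bp in KO and 770 bp in WT, against 363 bp and 215 bp for the whole KO and WT H3K27ac lists. Of the doubly marked peaks, 72.2% lay wholly inside KO H3K27ac and 78.6% wholly inside WT H3K27ac.

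The overlap threshold of 1 bp decided few peaks, while a width limit of 300 bp on all lists left 3605. The smaller of the overlaps with KO and WT H3K27ac was 10 bp or less at 1 peak, 50 bp or less at 12 and 100 bp or less at 44 of 6411. The peaks just inside had overlaps of 5, 11 and 15 bp. Of the 9304 shared peaks outside the rule, 12 had H3K27ac of both genotypes within 100 bp, and the nearest lay at gaps of 0, 5 and 7 bp. Seen from the H3K27ac side, 7719 WT H3K27me3 peaks lay on H3K27ac of both genotypes, and 83.1% of these overlapped a KO H3K27me3 peak. Of all 20918 WT H3K27me3 peaks, 15715 overlapped one and 24.9% did not.

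The peaks were also isolated along the genome. No other H3K27me3 peak lay within 5000 bp of 85.5% of doubly marked peaks in the KO list and of 88.7% in the WT list. Among shared peaks without H3K27ac these shares were 35.5% and 41.4%. Over all WT H3K27me3 peaks they were 58.9% and 65.5%, and over WT peaks that overlapped no KO H3K27me3 peak 64.5% and 75.9%. Most peaks of the WT list were thus isolated, the doubly marked ones more often. The doubly marked peaks were found on all 19 autosomes analysed, where they made up between 27.02% and 34.34% of the WT H3K27me3 peaks of a chromosome.

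KO and WT widths were compared in pairs in which 1 KO peak met 1 WT peak. In 6317 such pairs of doubly marked peaks the median width was 475 bp in KO and 397 bp in WT, the median KO over WT ratio was 1.13, and KO was wider in 66.5%. In 6914 pairs without H3K27ac the medians were 716 bp in KO and 449 bp in WT, with a ratio of 1.38 and KO wider in 74.3%. The KO list was therefore wider in both sets, by less at the doubly marked peaks. Without replicates it is not known how far such ratios vary between animals of 1 genotype.

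The doubly marked peaks were also split by the share of their width that lay in H3K27ac. The split uses the widths of both marks, so which mark is wider in a set follows largely from it. Those widths are given as a description only. In 4330 peaks (67.5%) the whole WT peak lay inside H3K27ac of both genotypes, and these had a median width of 354 bp under H3K27ac of 783 bp in KO and 834 bp in WT. At the other extreme, 145 peaks (2.26%) had under 50% of their width in H3K27ac of each genotype. These had a median width of 1112 bp, with H3K27ac of 251 bp in KO and 284 bp in WT. H3K4me3 overlapped 93.4% of the enclosed peaks in KO and 80.5% in WT, against 84.8% in KO and 61.4% in WT for the wide set. The remaining 1936 peaks lay between.

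**Figure D1:**
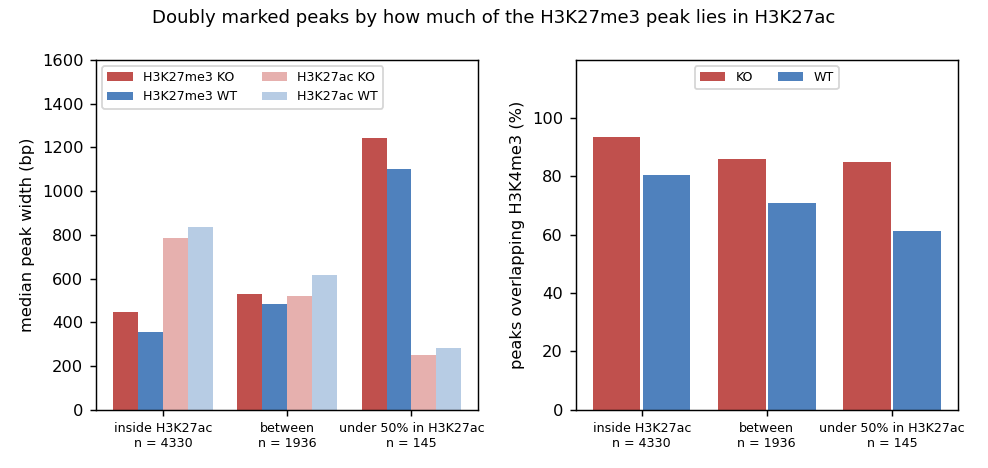
Doubly marked peaks by how much of the H3K27me3 peak lies in H3K27ac. Left, median widths in bp of H3K27me3 peaks (in pairs of 1 KO and 1 WT peak) and of the H3K27ac peaks over them; right, the percentage overlapping H3K4me3; bars carry no error. H3K27ac is wider than H3K27me3 in the enclosed set and narrower in the set with under 50% covered, which follows largely from the split itself. In the latter set H3K27me3 medians are 1241 bp in KO and 1102.5 bp in WT.

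Most doubly marked peaks carried H3K4me3, a mark that the rule did not use. H3K4me3 was present at 91.0% in KO (interval 90.3% to 91.7%) and 77.1% in WT (76.1% to 78.2%), against 39.2% in KO and 29.8% in WT of all WT H3K27me3 peaks. At shared peaks without H3K27ac it was present at 9.67% in KO (9.04% to 10.3%) and 3.70% in WT (3.30% to 4.13%). The intervals of these sets lie far apart in both genotypes. The contrast held in the narrowest peaks too: under 300 bp, H3K4me3 was present at 84.1% of 1919 doubly marked peaks in KO and 66.2% in WT, against 5.75% and 1.55% of 2714 peaks without H3K27ac.

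H3K4me3 was listed in both genotypes at 4906 doubly marked peaks, in KO only at 929 (14.5%), in WT only at 40 (0.624%) and in neither at 536 (8.36%). Over all WT H3K27me3 peaks these shares were 10.2% in KO only, 0.794% in WT only and 60.0% in neither. The excess of KO-only over WT-only presence was found in the whole list as well. With equal numbers of the widest peaks of each mark in KO and WT, the counts were 498 in KO only and 75 in WT only. Among WT H3K27ac peaks that overlapped KO H3K27ac, H3K4me3 was in KO only at 14.7% of those with a doubly marked peak. Of those with no H3K27me3 in either genotype the share was 14.8%. In the widest decile of WT H3K27ac width these shares were 7.96% and 18.8%. KO-only H3K4me3 was thus not more frequent at doubly marked sites than at other shared H3K27ac.

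H3K4me1 was present at 89.4% of doubly marked peaks in KO and 96.4% in WT, against 38.4% in KO and 43.1% in WT over all WT H3K27me3 peaks. It was present at 7.80% in KO and 10.97% in WT of shared peaks without H3K27ac. The rule required H3K27ac, so WT H3K27ac peaks that overlapped KO H3K27ac were compared as well. Of those with a doubly marked peak, H3K4me1 was present at 89.3% in KO and 96.2% in WT. Of those with no H3K27me3 in either genotype it was present at 78.6% in KO and 82.2% in WT, a much smaller contrast. H3K4me1 in KO only was found at 58 doubly marked peaks (0.905%) and in WT only at 509 (7.94%), where the whole list gave 1.81% and 6.54%. The direction is thus opposite to that of H3K4me3, with WT holding more of these peaks. At 3697 doubly marked peaks (57.7%) the centre of the WT peak was covered by all 8 lists, that is by every mark in both genotypes. Over all WT H3K27me3 peaks this share was 17.7%, and by construction each such peak is doubly marked.

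**Figure D2:**
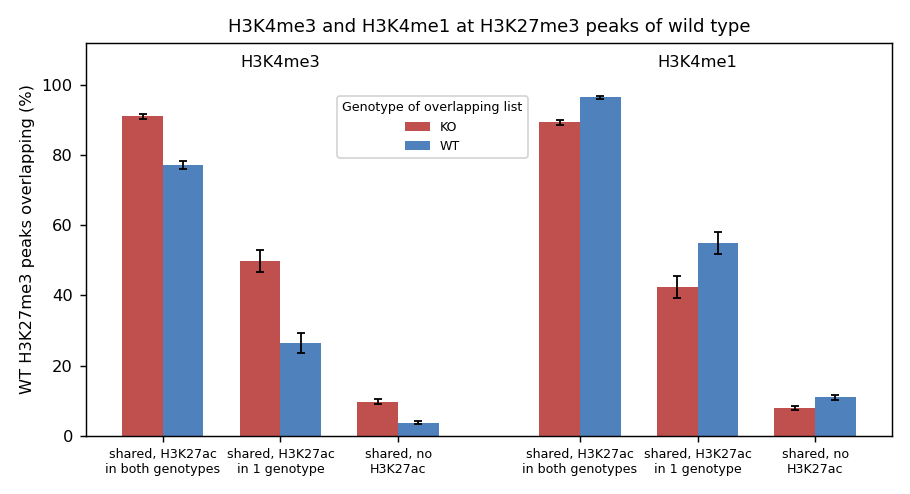
Percentage of WT H3K27me3 peaks overlapping H3K4me3 (left) and H3K4me1 (right) in KO and in WT, for shared peaks with H3K27ac in both genotypes, in 1 genotype and in neither; error bars are exact binomial intervals at 95%. H3K4me3 stands at 91.0% in KO and 77.1% in WT of the doubly marked set, against 9.67% in KO and 3.70% in WT of the set without H3K27ac.

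Since H3K4me3 tends to accompany H3K27ac, the same H3K27ac peaks were compared with and without H3K27me3. Of the 30018 H3K27ac peaks of WT shared with KO, 6425 (21.4%) carried a doubly marked peak. The share was 46.6% (45.7% to 47.6%) where H3K4me3 was in both genotypes and 3.69% (3.38% to 4.00%) where it was in neither. The share also moved with the width of H3K27ac. With H3K4me3 in both genotypes it was 53.9% in the widest decile of WT H3K27ac peaks (773 bp or more) and 11.9% in the narrowest decile (110 bp or less, 5 of 42 peaks). Without H3K4me3 in either genotype it was 5.68% in the widest decile and 1.00% in the narrowest.

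**Figure D3:**
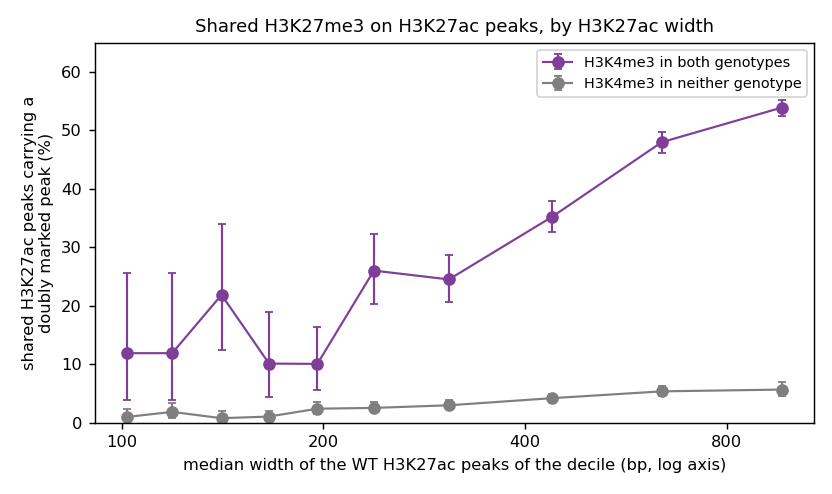
Percentage of shared H3K27ac peaks that carry a doubly marked peak, by decile of WT H3K27ac width (median width in bp, log axis), for peaks with H3K4me3 in both genotypes and in neither; error bars are exact binomial intervals at 95%. The share reaches 53.9% with H3K4me3 and 5.68% without it in the widest decile.

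Within the widest decile, where median widths were 992 bp with a doubly marked peak and 951 bp with no H3K27me3 in either genotype, H3K4me3 still differed between them. It was present at 96.9% in KO and 89.2% in WT of the 3167 H3K27ac peaks with a doubly marked peak. Of the 3652 with no H3K27me3 it was present at 61.4% in KO and 44.2% in WT.

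The doubly marked peaks without H3K4me3 in either genotype were narrow and lay mostly away from gene starts. They numbered 536, had a median width of 288 bp under H3K27ac of 441 bp in KO and 521 bp in WT, and carried H3K4me1 at 89.0% in KO and 92.2% in WT. Only 21 of them lay at a gene start, 172 lay inside a gene and 316 between genes.

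Doubly marked peaks were concentrated at starts of transcription. A protein-coding gene start lay within 1000 bp of 4215 (65.7%, interval 64.6% to 66.9%), against 38.2% of all WT H3K27me3 peaks and 30.3% of shared peaks without H3K27ac. Where a gene had no listed start, both annotated ends were used. A further 182 lay at a noncoding start, 796 inside a gene and 1131 between genes. At protein-coding starts H3K4me3 was present at 99.4% in KO and 95.7% in WT, while between genes it was present at 70.1% in KO and 35.2% in WT. Most peaks with H3K4me3 in KO only were away from starts, with 417 between genes, 288 inside genes and 159 at starts. Of shared H3K27ac peaks, 66.2% with a doubly marked peak and 18.9% with no H3K27me3 lay at a start. Where shared H3K27ac had H3K4me3 in both genotypes, 48.1% at a start and 40.8% away from one carried a doubly marked peak. Within that class the share thus differed little by location.

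Around 1 listed start the peaks took a narrow position just upstream. For the 3513 with a listed start the median centre was at -59 bp (quartiles -140 and 25 bp), and 77.9% of centres lay within 200 bp of the start. Shared peaks without H3K27ac had a median of 104 bp downstream (quartiles -151 and 482 bp), with 34.5% within 200 bp. The marks over the doubly marked peaks were ordered along the promoter. Median centres were at -66 bp in KO and -50 bp in WT for H3K4me1, -7 bp in KO and 1 bp in WT for H3K27ac, and 75 bp in KO and 48 bp in WT for H3K4me3. The H3K27me3 centre therefore lay with that of H3K4me1, upstream of H3K27ac and H3K4me3. The nucleosome-depleted region of an active promoter is known to lie just upstream of the start, with marked nucleosomes on either side.

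**Figure D4:**
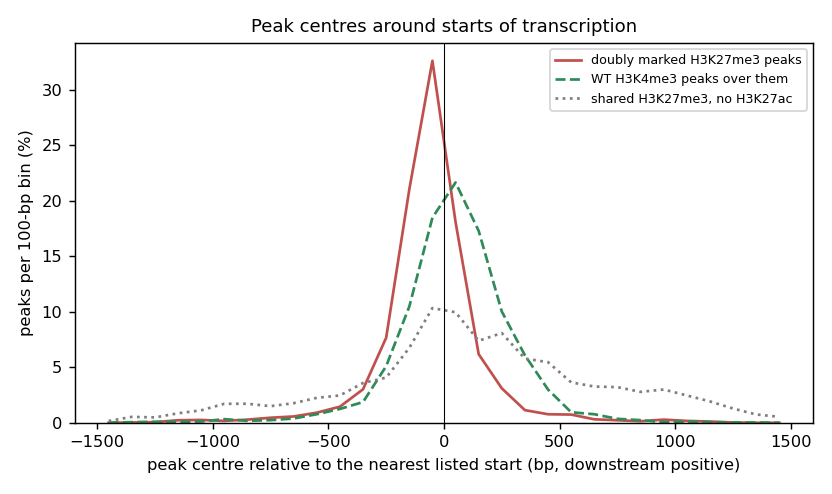
Centres of doubly marked H3K27me3 peaks, of the WT H3K4me3 peaks over them, and of shared H3K27me3 peaks without H3K27ac, as the percentage per 100-bp bin by distance in bp from the nearest listed start of transcription. The doubly marked peaks form the sharpest profile, with a median at -59 bp, and the WT H3K4me3 peaks are shifted downstream, with a median at 48 bp.

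A doubly marked peak lay at the start of 4650 of 20665 protein-coding genes (22.5%). Genes with H3K4me3 and H3K27ac in both genotypes, called active genes below, numbered 8952, and 4476 of them (50.0%) had such a peak. The other 174 genes with a doubly marked peak were not active by this definition. Of the active genes, 4533 had an H3K27me3 peak in both genotypes, 915 in KO only, 545 in WT only and 2959 in neither. An H3K27me3 peak was thus listed at most active starts. Active genes in the quartile with the widest WT H3K4me3 had a doubly marked peak in 56.1% of cases (54.0% to 58.1%), against 40.3% (38.2% to 42.3%) in the narrowest quartile. H3K4me1 was present at 89.5% in KO and 97.2% in WT of genes with a doubly marked peak, against 54.4% in KO and 75.5% in WT of active genes with no H3K27me3.

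Promoter sequence was compared over the genes with an entry in the RefSeq table, 3840 of 4650 with a doubly marked peak. The CpG ratio is the number of CpGs over that given by the C and G content of the 300-bp window. Its median was 0.817 at genes with a doubly marked peak, 0.810 at active genes with no H3K27me3 (2397 promoters), 0.652 at genes with H3K27me3 and no H3K27ac (1508 promoters) and 0.586 over all 16457 promoters. The share with a ratio of at least 0.6 was 86.4%, 79.4%, 57.4% and 49.0% in the same order. Median GC content was 64%, 60.7%, 62.7% and 56.7%. By CpG ratio the doubly marked promoters were nearest to active promoters with no H3K27me3, and by GC content to those with H3K27me3 and no H3K27ac. A divergent protein-coding neighbour was found at 16.7% of the doubly marked promoters and 17.6% of active ones without H3K27me3, but at 1.53% of promoters with H3K27me3 and no H3K27ac.

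Motifs were searched on both strands of the same windows, and no motif searched contains another. The CCAAT box (CCAAT), bound by NF-Y, was found in 47.5% of doubly marked promoters (45.9% to 49.1%), 29.0% of active promoters with no H3K27me3 (27.2% to 30.9%) and 38.9% of all promoters. The GC box (GGGCGG), bound by Sp1 and related factors, was found in 77.3%, 62.7% and 46.8% in the same order. The ETS motif (CCGGAAG) was found in 19.7%, 22.6% and 12.2%, and in 3.98% of promoters with H3K27me3 and no H3K27ac. The CRE (TGACGTCA) was found in 4.11%, 4.01% and 2.28%, the NRF1 palindrome in 2.55%, 2.59% and 1.34%, and the TATA box (TATAAA) in 5.16%, 6.84% and 13.5%. The CCAAT and GC boxes were thus the motifs whose share was higher at doubly marked promoters than at active promoters with no H3K27me3, with intervals apart. Read the other way, 59.8% of active genes with a CCAAT box had a doubly marked peak, against 44.3% of those without it. Among promoters with a CpG ratio of at least 0.6 these shares were 62.7% and 46.1%. A match is a description of the letters and not a measured binding site.

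The genes with doubly marked peaks were read through 16 lists of 470 genes found, of which 130 had such a peak. Immediate early genes, which are switched on within minutes by growth and stress signals, had it at 20 of 25 active genes (80.0%, interval 59.3% to 93.2%) against 50.0% of all active genes. All 21 immediate early genes with a doubly marked peak carried H3K4me3 in both genotypes. Of Polycomb complex genes 14 of 21 active ones had such a peak (43.0% to 85.4%), and of DNA methylation genes 7 of 11 (30.8% to 89.1%), intervals that hold 50.0%. Of arterial genes 7 of 14 had one, and of general capillary genes 1 of 12 (8.33%, 0.211% to 38.5%). Pan-endothelial genes had it at 4 of 21 active genes (19.05%, 5.45% to 41.9%), below the share of all active genes. Housekeeping lists each lay below the 50.0% of all active genes. They gave 25 of 70 active cytosolic ribosomal protein genes (35.7%, 24.6% to 48.1%), 13 of 28 proteasome genes and 14 of 30 spliceosome and polymerase genes. General housekeeping genes gave 9 of 21. Of these lists only the ribosomal one had an interval wholly below 50.0%.

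**Figure D5:**
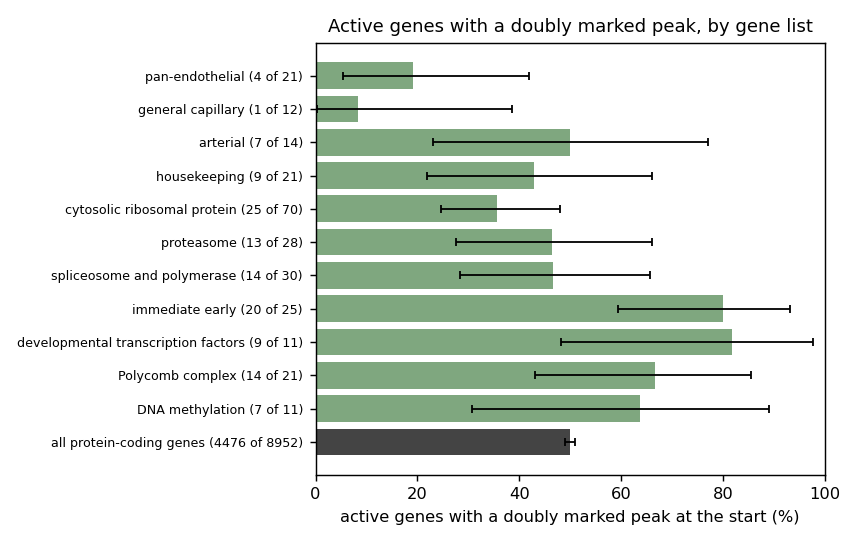
Percentage of active genes (H3K4me3 and H3K27ac in both genotypes) with a doubly marked peak at the start, for gene lists with at least 10 active genes and for all protein-coding genes; numbers are genes and error bars are exact binomial intervals at 95%. Immediate early genes stand at 80.0% and pan-endothelial genes at 19.05%, against 50.0% of all active genes.

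Developmental transcription factors, the classical Polycomb targets, mostly lay outside the doubly marked set. Of 123 such genes 99 had H3K27me3 in both genotypes, 80 had it with no H3K27ac, and 9 had a doubly marked peak. Over all 20665 protein-coding genes these counts were 7218, 2014 and 4650. The 9 were 81.8% of the 11 that were active (interval 48.2% to 97.7%), an interval that holds the 50.0% of all active genes. Among them, Foxc1 (chr13:31805687-31806683), a forkhead factor of vascular and eye development, had an H3K27me3 peak of 1841 bp in KO and 997 bp in WT, under H3K27ac of 158 bp in KO and 650 bp in WT. Tbx3 (chr5:119670325-119671042), a T-box repressor, had H3K27me3 of 678 bp in KO and 718 bp in WT, with H3K27ac of 834 bp in KO and 830 bp in WT. Sox9 (chr11:112782031-112783002), a factor of cartilage and lung epithelium, had H3K27me3 of 963 bp in KO and 972 bp in WT, with H3K27ac of only 260 bp in KO and 155 bp in WT. At Tbx3 H3K27ac was thus the wider mark in both genotypes, while at Sox9 and Foxc1 it was the narrower.

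Of the 21 immediate early genes, 14 had a doubly marked peak enclosed in H3K27ac of both genotypes and 7 one that lay between, a split close to the 67.5% enclosed among all doubly marked peaks. Fos (chr12:85473551-85474356), a subunit of AP-1, had H3K27me3 of 1229 bp in KO and 806 bp in WT, with H3K27ac of 984 bp in KO and 1167 bp in WT and H3K4me3 of 911 bp in KO and 1054 bp in WT. Dusp1 (chr17:26508101-26508744), a phosphatase that switches off MAP kinases, had H3K27me3 of 806 bp in KO and 644 bp in WT inside H3K27ac of 1288 bp in KO and 1424 bp in WT. Atf3 (chr1:191183049-191183829), a stress-induced factor, was not enclosed, with 97.1% of the WT peak in WT H3K27ac, and had H3K27me3 of 811 bp in KO and 781 bp in WT, and H3K27ac of 877 bp in KO and 822 bp in WT. In WT, H3K27ac was the wider mark at all of these. Over the 21 genes the median H3K27me3 width was 697 bp in KO and 635 bp in WT, and KO was wider at 16.

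Endothelial and arterial genes with a doubly marked peak included known regulators. Cldn5 (chr16:18776677-18777030), the main claudin of endothelial tight junctions, had H3K27me3 of 1587 bp in KO and 354 bp in WT, a ratio of 4.48, with H3K27ac of 719 bp in KO and 896 bp in WT. H3K4me3 at Cldn5 was 1484 bp in KO and 897 bp in WT. Tie1 (chr4:118489766-118490168), an orphan receptor of the angiopoietin system, had H3K27me3 of 438 bp in KO and 403 bp in WT. Flt1 (chr5:147725963-147726444), a VEGF receptor, had H3K27me3 of 331 bp in KO, in the wider of 2 peaks, and 482 bp in WT, inside H3K27ac of 1281 bp in KO and 1553 bp in WT. In WT, H3K27ac was the wider mark at Cldn5, Tie1 and Flt1. In KO it was the wider at Tie1 and Flt1, while at Cldn5 H3K27me3 was the wider. The KO and WT widths of H3K27me3 differed in either direction. Dll4 (chr2:119325534-119325886), an arterial Notch ligand, had H3K27me3 of 838 bp in KO and 353 bp in WT. Efnb2 (chr8:8660994-8661454), an arterial ephrin, had 134 bp in KO and 461 bp in WT. Of the 3 lung epithelial marker genes that were active, Abca3 and Sftpc, both of surfactant-making alveolar cells, had a doubly marked peak. Sftpc has no listed start, and its peak (chr14:70520133-70520801) lay outside the gene, near the annotated end at 70520941. Whether transcription of Sftpc starts at that end is not given, so the marks there need not be those of its promoter. The part of other cell types in the sort was not tested.

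Genes of the machineries themselves also carried these peaks. Ezh2 (chr6:47594991-47595492), the enzyme that writes H3K27me3, had an H3K27me3 peak of 1188 bp in KO and 502 bp in WT inside H3K27ac of 1620 bp in KO and 1500 bp in WT. Dnmt1 (chr9:20952819-20952992), the maintenance DNA methyltransferase, had 704 bp in KO and 174 bp in WT. Tet1 (chr10:62886294-62887540), a 5-methylcytosine oxidase, had 1619 bp in KO and 1247 bp in WT, with H3K27ac of 487 bp in KO and 874 bp in WT. Ezh2 and Tet1 differ in that H3K27ac was the wider mark at Ezh2 and H3K27me3 at Tet1. B2m (chr2:122147440-122148102), the light chain of class I MHC, had 289 bp in KO and 663 bp in WT inside H3K27ac of 1505 bp in KO and 899 bp in WT. Gapdh (chr6:125165474-125165888), a glycolytic enzyme, had 296 bp in KO and 415 bp in WT with H3K27ac of 414 bp in KO and 934 bp in WT. Such genes are expressed in nearly every cell, and their starts carried H3K4me3 in both genotypes.

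Several of the genes named for the widest doubly marked peaks had wide H3K27me3 and short H3K27ac. At Unc5c (chr3:141464700-141467331), a netrin receptor of axon guidance whose promoter is printed above, H3K27me3 was 2731 bp in KO and 2632 bp in WT, with H3K27ac of 384 bp in KO and 151 bp in WT. Slit2 (chr5:47982992-47985540), a guidance ligand for Robo receptors, had H3K27me3 of 3253 bp in KO and 2549 bp in WT, and H3K4me3 of 2894 bp in KO and 717 bp in WT. Ikzf1 (chr11:11684067-11686382), a lymphoid transcription factor, had H3K27me3 of 3060 bp in KO and 2316 bp in WT over H3K27ac of 135 bp in KO and 121 bp in WT. Those H3K27ac peaks did not overlap each other, lying at chr11:11686126-11686260 in KO and chr11:11685260-11685380 in WT. Unc5c, Slit2 and Ikzf1 are known as regulated genes of development and lineage, and their H3K27me3 was wider than H3K27ac in both lists. Pdgfc (chr3:81035385-81037754), a growth factor for mesenchyme, had 1844 bp in KO and 2370 bp in WT over H3K27ac of 160 bp in KO and 239 bp in WT. Meox2 (chr12:37107240-37109696), a homeobox gene of mesoderm and endothelium, had 1019 bp in KO, in the wider of 2 peaks, and 2457 bp in WT.

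Among the named genes, Sh3glb1 (chr3:144720192-144720669), which encodes endophilin B1, had the widest WT H3K27ac, and H3K27me3 there was 800 bp in KO and 478 bp in WT under H3K27ac of 2355 bp in KO and 2425 bp in WT. Chrm4 (chr2:91921105-91922183), a muscarinic receptor, had the widest H3K27me3 among the named genes with no H3K4me3 in either genotype, at 1499 bp in KO and 1079 bp in WT, with H3K27ac of 197 bp in KO and 184 bp in WT. Igfbp3 (chr11:7213519-7215059), a binding protein of insulin-like growth factors, had H3K4me3 in KO only, at 1104 bp, with H3K27me3 of 1549 bp in KO and 1541 bp in WT. H3K27me3 width at Igfbp3 thus hardly differed between lists that differed in H3K4me3. Snai1 (chr2:167537906-167538161), a factor of epithelial-mesenchymal transition, was among the 3 genes with H3K4me3 in WT only, at 228 bp. The lowest KO over WT ratio of H3K27me3 width by the rule for names was 0.215, at Xylt1 (chr7:117380715-117382536), which starts glycosaminoglycan chains, with 392 bp in KO and 1822 bp in WT. The highest was 6.13, at Camk2n1 (chr4:138453957-138454342), an inhibitor of CaMKII, with 2365 bp in KO and 386 bp in WT.

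The widest doubly marked peak of all lay at chr17:39843127-39846786 (3660 bp) and ran into Rn18s-rs5, a sequence related to 18S ribosomal RNA. The KO H3K27ac, KO H3K4me3, KO H3K4me1, WT H3K27ac and WT H3K4me1 lists each had their widest peak here, at 3566, 3296, 3513, 3599 and 3368 bp. It ranked second in the WT H3K27me3 list, while the KO H3K27me3 peak here, of 3617 bp, ranked 76 in its list. The WT H3K4me3 list had 3 peaks here, the widest of 1942 bp at rank 60. Ribosomal DNA is present in many copies, and the labels do not state how reads with several matches were handled.

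The enclosed peaks and the 145 peaks with little of their width in H3K27ac also differed in promoter sequence. The median CpG ratio was 0.828 in the enclosed set (2704 promoters) and 0.722 in the wide set (81 promoters). A CCAAT box was found in 47.7% and 32.1% of them. The peaks between gave 0.792 and 48.1% over 1081 promoters, so the lower CCAAT share rests on the 81 promoters alone, and no interval was computed for it. Whether the enclosed peaks carry H3K27me3 or Tn5 cutting of open promoters was not tested, and cells with H3K27me3 and cells with H3K27ac mixed in 1 sort cannot be told apart from both marks in the same cell.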

How the data were processed

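The doubly marked peaks and the gene lists were chosen with earlier results of these data known. The authors' deposited values are positions and widths of peaks in bp, of the unit class other, 1 list per mark and genotype, without score or values per sample. Not given in the sources used here: whether samples were pooled before calling, the peak threshold, and each sample's depth, which is therefore unknown. Per the submitters' processing notes, MACS2 2.1.2.1, deepTools 3.1.1, SAMtools, Bowtie2 2.2.6, cutadapt 1.14 and Trim Galore 0.4.4 were used, with mm10 and, for the yeast spike-in, R64.

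Overlaps of at least 1 bp were counted with pandas 2.3.3 and numpy 2.4.6 in Python 3.11.15, intervals came from scipy 1.17.1, and figures from matplotlib 3.10.9. The overlap code was tested on simulated data. Genes were 20665 protein-coding genes of GRCm38.p6 on chromosomes 1 to 19. A gene had a peak if one lay within 1000 bp of its listed start (16457 genes) or, where none is listed, of either annotated end (4208 genes). Widths given for a gene are those of the widest peak of each list over the doubly marked peak. In the positions around starts, peaks with a listed start within the window were used.

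The rule for named genes took, among doubly marked peaks at protein-coding genes, the 10 widest, the 5 widest without H3K4me3, with H3K4me3 in KO only and in WT only, the 5 highest and 5 lowest KO over WT widths with both peaks of at least 300 bp, the 5 widest in WT H3K27ac, and up to 8 genes a list in alphabetical order. Symbols starting with Gm or LOC or ending in Rik were passed over. Some of these genes are described here and the others are not. The lists not described above gave 3 of 7 active aerocyte genes, 2 of 3 venous and lymphatic genes and 2 of 3 lung epithelial genes with a doubly marked peak, and 0 active leukocyte, mesenchymal or mural genes. Peak sequences outside promoters were not analysed here.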

Additional observations from a re-analysis of the deposited data

How the results depend on the processing

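No paired analysis was possible because each group has 1 list of peaks and no value per sample, and for the same reason no replicate could be left out. Of the values recomputed under alternatives, 43 moved by less than their counting error or 1.5 times and 30 moved by more. The cause of the moves was not tested. A change of direction was looked for only in the difference in CCAAT promoters, where none was found. The other values are counts, widths and shares, which have no direction to change. Requiring 50% of the width to be overlapped gave a median width of 381 bp, H3K4me3 at 78.3% in WT, H3K4me1 at 91.2% in KO and 97.2% in WT, and a doubly marked peak at 44.8% of active genes. Using peaks of at least 300 bp left 3605 doubly marked peaks of 495 bp median width, with H3K4me3 at 91.7% in KO and 79.8% in WT, 453 with H3K4me3 in KO only against 24 in WT only, H3K4me1 at 87.4% in KO and 93.4% in WT, 72.5% at a gene start, 2931 genes, 36.4% of active genes and a median CpG ratio of 0.828. Taking equal numbers of the widest peaks in KO and WT gave a width of 435 bp, H3K4me3 at 88.5% in KO and 80.2% in WT, 498 peaks with it in KO only against 75 in WT only, H3K4me1 at 90.6% in KO, 68.4% at a gene start and 42.4% of active genes. The excess of KO-only over WT-only H3K4me3 thus kept its direction when the lists were equal in length, at a smaller ratio. Starting from the KO list gave a median width of 477 bp. The share at a gene start was 63.9% with 500 bp, 68.0% with 2000 bp, 61.6% with either end of every gene and 54.8% with listed starts only. The last 2 alternatives, and those on active genes and promoters, were chosen after seeing the data. The difference in CCAAT promoters between genes with a doubly marked peak and active genes with no H3K27me3 was 18.5 percentage points and lay between 16.1 and 20.2 under the alternatives run for it. The number of samples behind a list and its depth limit all of these values, and neither enters them.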

Other observations

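Other wide doubly marked peaks lay outside the rule for named genes and were picked after their values were seen. At chr11:88967938-88970744, between genes, H3K27me3 was 2826 bp in KO and 2807 bp in WT over H3K27ac of 625 bp in KO and 355 bp in WT, with no H3K4me3 or H3K4me1 peak in either genotype. At chr9:124422833-124425899, over the predicted gene Gm20783, H3K27me3 was 3109 bp in KO and 3067 bp in WT and H3K27ac nearly as wide, at 3065 bp in KO and 3106 bp in WT. The chromosome 11 peak shows wide H3K27me3 with short H3K27ac alone, and the chromosome 9 peak shows both marks at like width, as at Rn18s-rs5. Wnt2 (chr6:18030189-18032288), a Wnt ligand of lung mesenchyme, had H3K27me3 of 2498 bp in KO and 2100 bp in WT, with H3K27ac of 128 bp in KO and 675 bp in WT.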
